A study of Mus musculus with 4 samples.

Results

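The genes described here encode glycoproteins that macrophages can secrete into the extracellular matrix: Fn1 (fibronectin), Thbs1 (thrombospondin 1), Tgfbi (TGF-beta-induced protein), Postn (periostin), Ecm1 (extracellular matrix protein 1) and Spp1 (osteopontin). They were chosen by name with the values of these 4 arrays already known, so their own differences are a description and carry no test. Of the 6 genes, 5 were matched by symbol to a probeset, each to 1, among 19938 genes named on the array. No probeset was matched to Spp1, and it was not analysed here.

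The cells were mouse bone marrow-derived macrophages. Per the labels, bone marrow was differentiated for 7 days with 10% supernatant of L929 cells, a fibroblast line that produces the macrophage growth factor M-CSF. The adherent cells were detached with 5 mM EDTA and replated. They then spent 24 h in plain medium or in medium containing IL-4, and were sorted by antibody to the macrophage surface protein that Adgre1 encodes. The IL-4 concentration is 10 µg/mL in one description and 10 mg/mL in another. Wild-type marrow was from BALB/c animals, and the Stat6-deficient cells from mice given as 4get/Stat6-/-, labelled as lacking Stat6, the factor through which IL-4 receptors act on genes, and also carry the 4get reporter of IL-4 transcription. The labels name this reporter for the Stat6-deficient strain alone, so the loss of Stat6 and the other differences between the strains cannot be told apart. The labels give no age or sex, and do not say how many animals each culture came from.

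Every group had 1 array, called below the wild-type medium, wild-type IL-4, Stat6-/- medium and Stat6-/- IL-4 array. There were no replicates to check a difference against, and no p-value was computed. Levels are log2 RMA signals, and a difference is the difference of a pair of them. A gene is said to have risen, fallen or differed where the difference reached 1 (2-fold) and the higher array reached the floor of 2.52, the median of all probesets with a single gene symbol. Signals of different genes come from different probes and are not set against each other. In bulk RNA, fewer cells of a type and less RNA per cell cannot be told apart, which holds for every difference below.

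Matrix glycoproteins give tissue its scaffold and also signal to cells. Fibronectin is assembled into fibrils through integrins and serves as a bed for other matrix proteins. Thrombospondin 1 binds Cd36 and Cd47 and can activate latent TGF-beta, the cytokine after which TGF-beta-induced protein is named. That protein and periostin are related, being built around fasciclin domains, and both bind collagen and integrins. Macrophages activated by IL-4 are known for a part in matrix remodelling and wound repair.

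The labels were checked first. Stat6 was at 7.34 on the wild-type medium and 6.68 on the wild-type IL-4 array, and at 4.54 and 4.25 on the Stat6-/- medium and IL-4 arrays. It was lower on both Stat6-/- arrays and above the floor there, and whether its probeset lies within the deleted part was not examined. All 16 macrophage markers found on the array, of a list of 17, were above the floor on all 4 arrays, with medians between 9.11 and 9.29. With IL-4 in wild type 5 of these 16 fell, beside 6.78% of all genes, and 0 rose. They were Cd14 (-2.74), Fcgr1 (-1.76), Mertk (-1.36), Adgre1 (10.75 in medium and 9.54 with IL-4) and Aif1, whose fall of 1.06 passed under 1 of 3 other scalings. Of 15 fibroblast and mesenchymal markers, 10 were under the floor on every array, among them Pdgfra, Pdgfrb, Dcn and Lum, and the other 5 reached at most 3.41. The summed linear signal of the 15 was 65.5 on the wild-type medium array, 68.1 on the wild-type IL-4, 75.3 on the Stat6-/- medium and 73.4 on the Stat6-/- IL-4 array. Of the markers of other blood and vessel cells found on the array, 4 of 12 for neutrophils, 1 of 10 for basophils and mast cells, 2 of 6 for eosinophils, 3 of 7 for B cells and 3 of 7 for endothelium reached the floor. With IL-4 in wild type the neutrophil marker Mmp8 rose from 5.01 to 6.39. Ngp went from 2.79 to under the floor and passed the rule, but against the floor its fall was at least 1.21-fold, short of 2-fold. It passed under 2 of 3 other scalings, and its difference in Stat6-deficient cells was -0.86. The neutrophil sum went from 75.3 to 124.7 in wild type, beside 67.3 and 68.4 on the Stat6-/- medium and IL-4 arrays. On the wild-type IL-4 array most of that sum was Mmp8, and S100a9 was under the floor on both wild-type arrays. The part of these other cells in the members' differences was not tested.

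The members did not move as a group. With IL-4 in wild type, Fn1 and Postn rose, Thbs1 fell, and Tgfbi and Ecm1 did not pass the rule of size. Of the 5 members, 3 thus changed, where 9.74% of 10282 genes did, with 2.96% higher and 6.78% lower. With IL-4 in Stat6-deficient cells 0 of the 4 members that could be called changed, against 0.355% of 10410 genes, 0.24% higher and 0.115% lower. Between the genotypes in medium, Fn1 was lower and Tgfbi higher in Stat6-deficient cells, 2 of 4 members, against 1.45% of 10299 genes, 0.301% higher and 1.15% lower. Between the genotypes with IL-4, Thbs1 and Tgfbi were higher and Fn1 and Postn lower in Stat6-deficient cells, 4 of 5 members, against 8.84% of 10433 genes, 4.01% higher and 4.83% lower. Subtracting the Stat6-/- response to IL-4 from the wild-type response gave a value past the rule for 3 of 5 members, positive for Fn1 and Postn and negative for Thbs1, against 8.97% of 10798 genes, 3.2% positive and 5.77% negative. Since the members were picked with these values known, nothing is read from their shares. The median difference of the 5 members was -0.38 with IL-4 in wild type, beside -0.11 over all genes. In Stat6-deficient cells the median of the 5 was -0.06, which is the value of Postn. Postn was under the floor on both of those arrays, so this median is not set against the -0.05 over all genes.

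**Figure D1:**
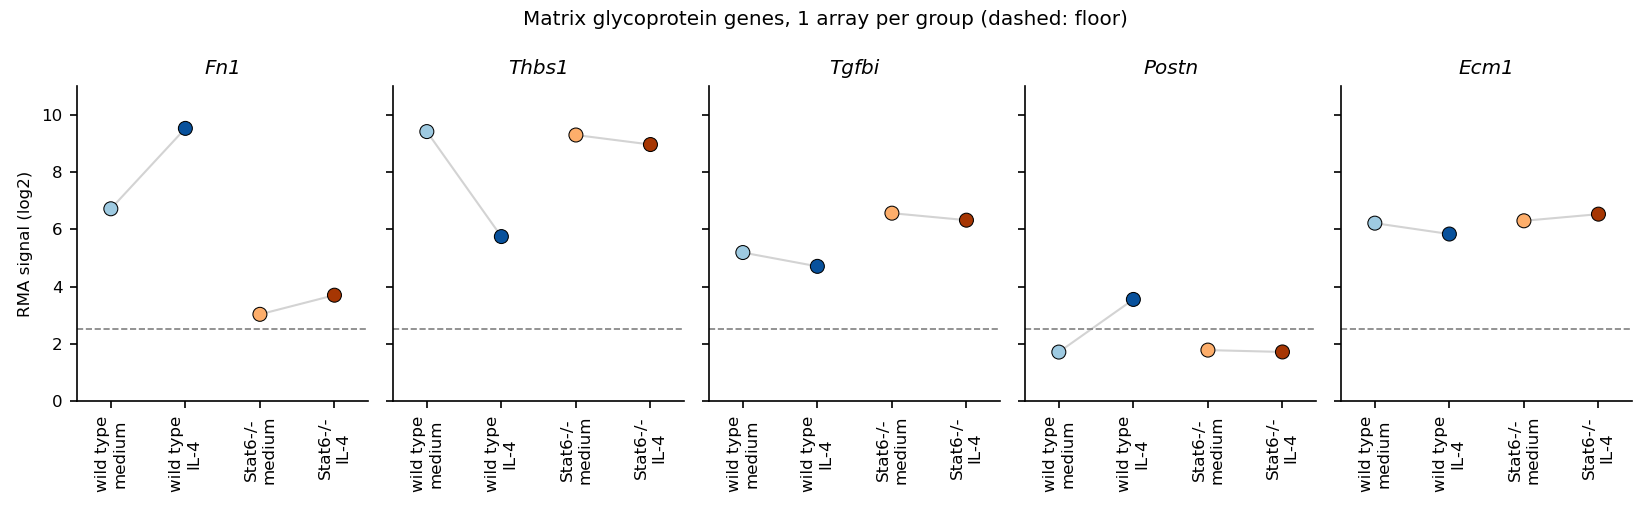
RMA signal (log2) of each gene on each of the 4 arrays, 1 point per array. The dashed line is the floor at 2.52, and the grey lines join the arrays of one genotype. Fn1 was high in wild type and low in Stat6-deficient cells, Thbs1 was low on 1 array only, the wild-type IL-4 array, and Postn was above the floor on that array only.

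Fibronectin varied the most. Fn1 was at 6.72 on the wild-type medium and 9.52 on the wild-type IL-4 array, and at 3.03 on the Stat6-/- medium and 3.70 on the Stat6-/- IL-4 array. Both wild-type arrays lay above both Stat6-deficient arrays, and all 4 were above the floor. The gap between the lower wild-type and the higher Stat6-deficient array was 3.01. The range of Fn1 over the 4 arrays was 6.49, which ranked 2 among 10798 genes that reached the floor on at least 1 array, with signals under the floor raised to it. The median range of those genes was 0.52.

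In wild type, Fn1 rose by 2.81 with IL-4, or 6.99-fold, at rank 24 from the highest of 10282 genes. In Stat6-deficient cells the difference was 0.67, or 1.59-fold, in the same direction and short of the rule. The middle 95% of genes ran from -0.60 to 0.61 in that comparison, and Fn1 lay just above it. The IL-4 difference was thus 2.14 larger in wild type, and this comparison was not tested.

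The genotype difference of Fn1 was present without IL-4. In medium, Fn1 was 12.8-fold lower in Stat6-deficient cells (-3.68), the second lowest of 10299 genes, while the middle 95% of genes ran from -0.83 to 0.61. With IL-4 it was 56.5-fold lower (-5.82), at rank 3 from the lowest of 10433 genes. The IL-4 and the genotype comparisons share arrays, so that a deviation of 1 array enters several of these values.

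**Figure D2:**
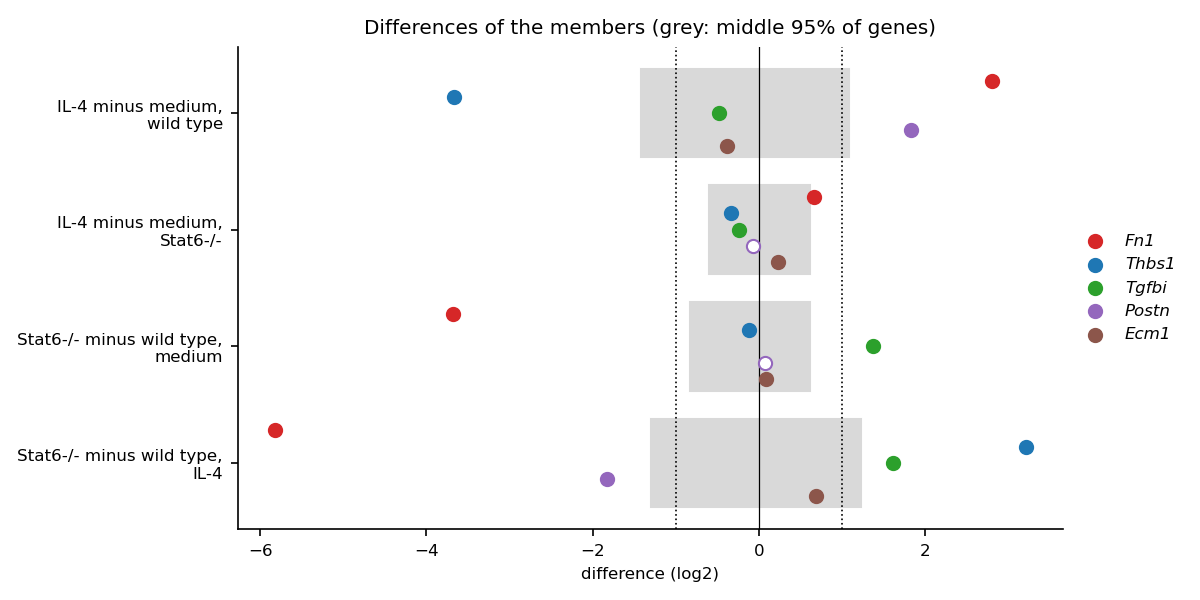
Log2 differences of the 5 genes in the 4 comparisons of a pair of arrays. Grey bars span the middle 95% of genes that could be called, dotted lines mark the rule of size, and open points stand for a gene under the floor on both arrays. Fn1 lay outside the grey bar in all 4 comparisons, while Tgfbi lay outside it in both comparisons of genotypes and inside it in both of IL-4.

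Thrombospondin 1 had the opposite pattern with IL-4. Thbs1 was at 9.41 on the wild-type medium array, 5.75 on the wild-type IL-4, 9.29 on the Stat6-/- medium and 8.96 on the Stat6-/- IL-4 array. The wild-type IL-4 array stood alone below the other 3, with gaps of 0.12 and 0.33 between neighbours. The fall in wild type was 12.7-fold, at rank 7 from the lowest of 10282 genes. In Stat6-deficient cells the difference was -0.33, against a median of -0.05 over all genes. In medium the genotypes differed by -0.12, close to the median of -0.11 over all genes. With IL-4, Thbs1 was 9.26-fold higher in Stat6-deficient cells (3.21), at rank 9 from the highest of 10433 genes. Since the 3 comparisons that stand out use the wild-type IL-4 array, they are not separate support for its low value.

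Thrombospondin 1 is abundant in platelets, whose markers were therefore listed too. Of 7 such markers found on the array, of a list of 11, Itga2b, Gp5, Gp9 and Clec1b were under the floor on every array. Pf4, a platelet chemokine that macrophages also express, had signals of 9.24 and 9.46 in wild type and 8.06 and 7.81 in Stat6-deficient cells. Ppbp, another platelet chemokine, was at 2.61 on the wild-type medium and 3.35 on the wild-type IL-4 array and under the floor on both Stat6-/- arrays. Between the genotypes with IL-4 it passed the rule (-1.47), but against the floor it was at least 1.77-fold lower in Stat6-deficient cells, short of 2-fold. Treml1 ran from 3.09 to 3.52. The summed linear signal of the 7 markers was 636 on the wild-type medium array, 734 on the wild-type IL-4, 297 on the Stat6-/- medium and 252 on the Stat6-/- IL-4 array. Most of that sum was Pf4 on every array. The part of platelets in the Thbs1 difference was not tested.

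TGF-beta-induced protein followed the genotype rather than IL-4 under the rule of size. Tgfbi was at 5.19 on the wild-type medium and 4.71 on the wild-type IL-4 array, and at 6.56 on the Stat6-/- medium and 6.32 on the Stat6-/- IL-4 array. Both Stat6-deficient arrays lay above both wild-type arrays, with a gap of 1.13 between the nearest of them. Tgfbi was 2.59-fold higher in Stat6-deficient cells in medium (1.37), at rank 9 from the highest of 10299 genes. With IL-4 it was 3.06-fold higher (1.61), at rank 133 of 10433 genes. With IL-4 it differed by -0.48 in wild type and by -0.24 in Stat6-deficient cells, neither past the rule. Tgfbi thus differed between the genotypes in the direction opposite to Fn1 in both cultures.

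Periostin was above the floor on 1 array. Postn was at 1.72 on the wild-type medium array, 3.55 on the wild-type IL-4, 1.79 on the Stat6-/- medium and 1.72 on the Stat6-/- IL-4 array. The values under the floor have no order. The rise with IL-4 in wild type was at least 2.04-fold against the floor, and the measured difference was 1.84. With IL-4, Postn was likewise at least 2.04-fold lower in Stat6-deficient cells. As the gene passed the floor through the array on which it was high, it could be called only in comparisons that hold that array. Periostin is also made by fibroblasts, whose marker sums are given above. Of their collagens, Col1a1 went from 3.08 to 3.22 and Col3a1 from 2.88 to 2.91 with IL-4 in wild type, and on the Stat6-/- IL-4 array they were at 3.41 and 2.86, all close to the floor. The part of fibroblasts in the Postn difference was not tested.

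Ecm1, a secreted protein that binds several matrix components, varied the least. Its signal was 6.22 on the wild-type medium array, 5.84 on the wild-type IL-4, 6.30 on the Stat6-/- medium and 6.53 on the Stat6-/- IL-4 array. The range was 0.69. No difference of Ecm1 passed the rule, and the largest was 0.69 between the genotypes with IL-4, or 1.62-fold, inside the middle 95% of genes (from -1.30 to 1.23).

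**Figure D3:**
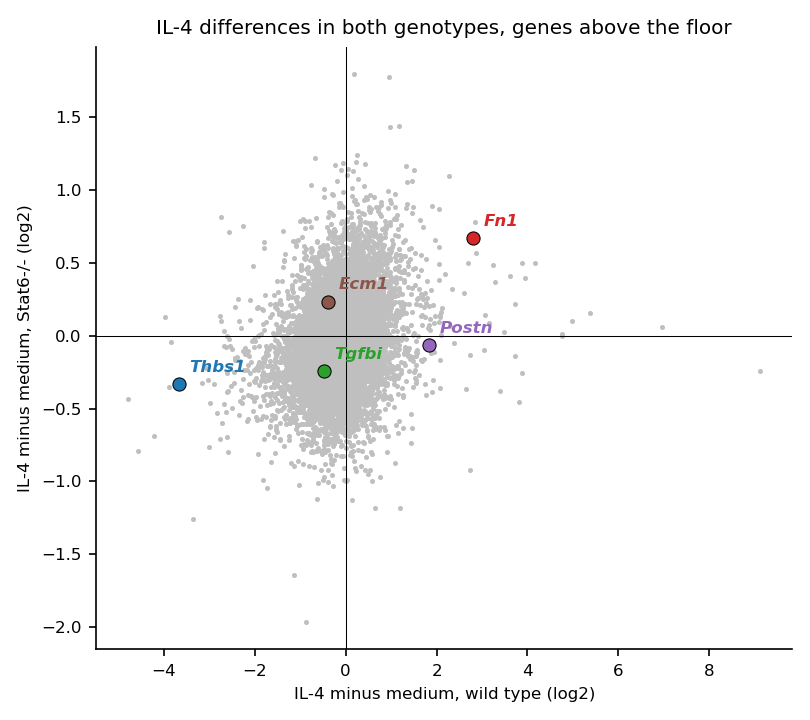
Difference between IL-4 and medium in wild type (horizontal axis) and in Stat6-deficient cells (vertical axis), both log2, for 10798 genes that reached the floor on at least 1 array (grey). Fn1 lay to the right (2.81) and slightly up (0.67), Thbs1 to the far left (-3.66) and near 0 on the vertical axis (-0.33), and Tgfbi and Ecm1 within the cloud. The vertical axis spans a smaller range than the horizontal one.

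The bases before the start sites of Postn and Tgfbi are shown because these related genes differed in their calls. With IL-4 in wild type Postn rose, and Tgfbi did not pass the rule. Between the genotypes with IL-4, Postn was lower and Tgfbi higher in Stat6-deficient cells. In medium Tgfbi was higher there, and Postn, under the floor on both arrays, could not be called. The sequences are from RefSeq on build GRCm38.p6, in a table that held Postn, Tgfbi, Ecm1 and Spp1 and gave no entry for Fn1 or Thbs1. Spp1 had no signal to set beside its sequence and is left out below. Windows of 300 bases, from 250 before to 50 after a start, were searched on both strands for TTCNNNNGAA and TTCNNNGAA, forms bound by STAT factors, for TGANTCA, the AP-1 form, and for TATAAA. Matches are in capitals.
Postn, chr3:54360857-54361106, plus strand: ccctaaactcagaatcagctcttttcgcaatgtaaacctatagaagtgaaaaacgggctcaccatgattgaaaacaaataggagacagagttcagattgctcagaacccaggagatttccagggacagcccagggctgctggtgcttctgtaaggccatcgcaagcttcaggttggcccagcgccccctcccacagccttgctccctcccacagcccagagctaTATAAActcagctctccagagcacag
Tgfbi, chr13:56609336-56609585, plus strand: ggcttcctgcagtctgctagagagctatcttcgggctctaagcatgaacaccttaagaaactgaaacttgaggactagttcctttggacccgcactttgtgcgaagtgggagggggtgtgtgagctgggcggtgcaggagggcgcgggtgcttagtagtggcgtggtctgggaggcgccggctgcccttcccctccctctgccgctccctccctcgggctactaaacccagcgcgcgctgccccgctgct
The Postn stretch held TATAAA, which begins 26 bases before the start, and none of the other forms, and the Tgfbi stretch held none of the 4 forms. The first of the 2 Postn starts in the table lies upstream of this one, and its window also held none of the 4. Ecm1 had TGANTCA beginning 64 bases and TATAAA beginning 27 bases before its start. Over all 32851 windows, TTCNNNNGAA was in 6.95%, TTCNNNGAA in 8.30%, TGANTCA in 7.81% and TATAAA in 13.6%. A match is a description of letters, and a window without one says nothing of binding elsewhere.

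The genes whose pattern was most like that of each member were taken from 10798 genes, as the 3 with the smallest Euclidean distance between log2 profiles over the 4 arrays, each raised to the floor and then centred on its own mean. For Fn1 the nearest was Itgax, the integrin chain CD11c, at a distance of 0.23, beside a median distance of 5.17 over all genes. Itgax had signals of 6.99 and 9.83 in wild type, in medium and with IL-4, and of 3.49 and 4.27 in Stat6-deficient cells. Its genotype difference was -3.50 in medium and -5.56 with IL-4, and its IL-4 difference 2.84 in wild type and 0.78 in Stat6-deficient cells. Penk, the opioid precursor, was at a distance of 0.85 and Mmp9, a matrix metalloproteinase, at 1.96.

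Itgax is also a marker of dendritic cells, and Mmp9 one of osteoclasts, so both lists are given beside Fn1. Of 7 dendritic cell markers, Flt3, Xcr1, Clec9a, Siglech and Ccr7 were under the floor on every array, and Zbtb46 ran from 2.42 to 2.92. The summed linear signal of the 7 was 149 on the wild-type medium array, 933 on the wild-type IL-4, 33.5 on the Stat6-/- medium and 42.3 on the Stat6-/- IL-4 array. On both wild-type arrays most of that sum was Itgax itself, so it largely restates that gene. Of 9 osteoclast markers, Calcr and Oscar were under the floor on every array. With IL-4, 6 of the other 7 were lower in Stat6-deficient cells than in wild type, beside 4.83% of all genes, and 0 were higher. Among the 6 were Mmp9 (-4.97) and Dcstamp, which was under the floor on the Stat6-/- IL-4 array and at least 20.8-fold lower there. With IL-4 in wild type Dcstamp, Ocstamp, Mmp9 and Itgb3 rose, 4 of 7, beside 2.96% of all genes, and 0 fell. In Stat6-deficient cells 0 of 5 changed with IL-4. In medium Ctsk, Mmp9 and Acp5 were lower in Stat6-deficient cells, 3 of 6, beside 1.15% of all genes, and 0 were higher. Acp5 passed there under 1 of 3 other scalings. Ctsk was under the floor on the Stat6-/- medium array, and against the floor it was at least 1.99-fold lower, short of 2-fold. The summed linear signal of the 9 was 173, 710, 101 and 99.5 in the same order of arrays. The part of such cells in the Fn1 difference was not tested.

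For Thbs1 the nearest genes were Ifit3, an interferon-induced gene, at a distance of 0.24, the chemokine Cxcl10 at 0.37 and the costimulatory receptor Cd28 at 0.37, beside a median of 3.002 over all genes. All 3 had their lowest signal on the wild-type IL-4 array: Ifit3 had 3.80 there and between 7.29 and 7.64 on the other arrays. Cd28 is a T cell marker too. Of 6 T cell markers found, Cd3d, Cd3g and Cd8a were under the floor on every array and Cd3e ran from 2.44 to 2.70. Cd4 was at 5.59 on the wild-type medium array, 3.17 on the wild-type IL-4, 4.94 on the Stat6-/- medium and 5.13 on the Stat6-/- IL-4 array. On all but the wild-type IL-4 array, most of the T cell sum was Cd28 and Cd4. The markers' summed linear signal was 131 on the wild-type medium array, 27.5 on the wild-type IL-4, 134 on the Stat6-/- medium and 115 on the Stat6-/- IL-4 array. That of the 16 macrophage markers was 14987, 10546, 13526 and 13473 in the same order. Of the 7 endothelial markers found, Cdh5, Tek, Tie1 and Emcn were under the floor on every array. With IL-4 in wild type Kdr fell from 4.11 to under the floor and Pecam1 from 4.30 to 2.79. Cldn5 went the other way, from under the floor to 2.82, and did not pass the rule. The summed signal of the 7 was 57.0, 30.3, 47.2 and 42.5 in that order. Most of it was Kdr and Pecam1 on all but the wild-type IL-4 array. The part of these cells in the Thbs1 difference was not tested.

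For Tgfbi the nearest were the signalling adaptor Eps8 at 0.23, the cytokine receptor Lifr at 0.48 and Tmem154 at 0.49, beside a median of 1.59. Eps8 had signals of 3.99 and 3.61 in wild type and 5.15 and 5.12 in Stat6-deficient cells. For Postn they were Ksr2, Tacc2 and Clec4b1, with distances between 0.01 and 0.03, which are small because signals under the floor were set equal. For Ecm1 they were Ezh2, Rbms2 and Asb7, with distances between 0.03 and 0.04, beside a median of 0.62.

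**Figure D4:**
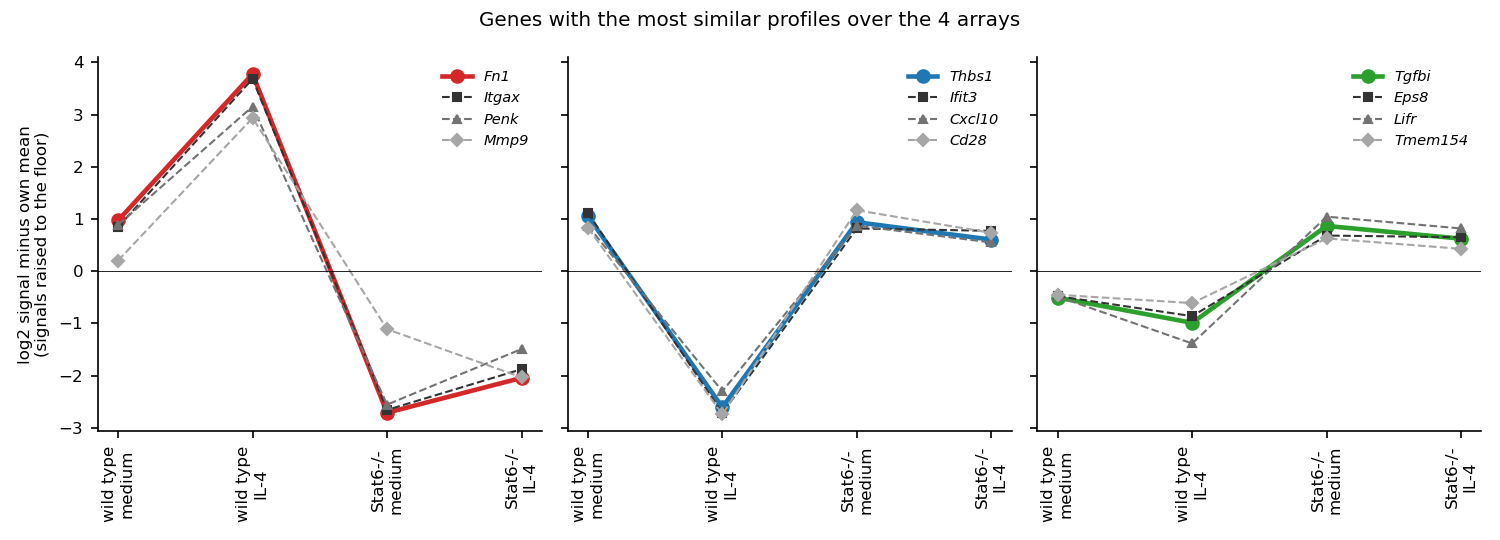
Log2 signals over the 4 arrays, raised to the floor and centred on each gene's own mean, for Fn1, Thbs1 and Tgfbi (thick lines) and the 3 genes with the smallest distance to each (dashed). Itgax lay almost on Fn1 on all 4 arrays, with a distance of 0.23. Mmp9 parted from Fn1 the most in Stat6-deficient cells in medium, and less so on both wild-type arrays. Lines join groups for the eye.

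The surrounding matrix genes were then counted in fixed lists, with their calls read against the shares of all genes given above. Of 60 other matrix glycoproteins, 56 were found and 17 reached the floor. With IL-4 in wild type Comp, a cartilage protein related to Thbs1, was the 1 of 13 that rose, from 1.64 to 3.02, at least 1.41-fold, and 0 fell. Comp was above the floor on the wild-type IL-4 array only, so its call rests on a signal under the floor, and against the floor the rise is short of 2-fold. The list's median was 0.25, beside -0.11 over all genes. The median over all genes differed with signal strength, being 0.01 without a floor and -0.20 with the floor at the 75th percentile. Most genes of this list were weak, and the medians of this and the following lists were not computed with that trend removed. The other thrombospondin genes, Thbs2, Thbs3 and Thbs4, were under the floor on every array, as were Sparc and Tnc. In Stat6-deficient cells 0 of 16 changed with IL-4, and 0 differed between the genotypes in either culture. Emilin2 (6.19, 5.87, 6.17 and 6.09 on the 4 arrays in the order used above) and Mfge8, a bridge to dying cells (5.59, 5.19, 5.43 and 5.34), were examples of glycoproteins that did not pass the rule.

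Of 17 collagens 12 reached the floor, with signals of at most 4.14, and 0 of 12 changed in any of the 4 comparisons of a pair of arrays. Their median differences ran from 0.08 to 0.18. The largest difference was 0.73, for Col6a1 between the genotypes in medium. Of 15 proteoglycans 3 reached the floor and 0 changed, among them Srgn, the core protein of the granule proteoglycan serglycin, whose signals ran from 8.12 to 8.57. Vcan, Dcn, Bgn and Lum were under the floor on every array.

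Among 21 enzymes that cross-link matrix or modify collagen, 11 reached the floor. F13a1, the transglutaminase subunit of coagulation factor XIII, which cross-links fibronectin and fibrin, fell by 2.64 with IL-4 in wild type, from 5.87 to 3.24. It was at 6.19 in Stat6-deficient cells in medium and at 5.67 with IL-4, a difference of -0.52. Plod1, a lysyl hydroxylase of collagen, fell in wild type from 7.50 to 6.32 and was at 7.90 and 7.43 in Stat6-deficient cells. These were the 2 of 9 that changed with IL-4 in wild type, both lower, and the same 2 of 10 were higher in Stat6-deficient cells with IL-4. The list's median with IL-4 in wild type was -0.12, beside -0.11 over all genes. Tgm2, another transglutaminase that acts on fibronectin, had 6.45 and 6.85 in wild type and 6.41 and 5.90 in Stat6-deficient cells, with no difference past the rule.

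Of 19 receptors for the members, 14 reached the floor. With IL-4 in wild type 1 of 14 rose and 2 fell, with a median of -0.37 beside -0.11 over all genes. Itga4 and Itga9, integrin chains that bind fibronectin and osteopontin, fell: Itga4 had 8.42 in medium and 5.69 with IL-4, and Itga9 went from 5.62 to under the floor, at least 8.53-fold. Itgb3, the chain that pairs with Itgav in a receptor for many matrix proteins, rose from under the floor to 4.11, at least 3.01-fold. In Stat6-deficient cells Itga4 was at 8.44 and 7.85, Itgb3 was under the floor in both cultures, and Itga9 fell from 5.55 to 4.29, the 1 of 13 that changed. Itga5, the classical fibronectin receptor chain, was at 5.03 and 5.44 in wild type and at 4.02 and 4.47 in Stat6-deficient cells. The difference of Itga5 in medium (-1.01) passed the rule, and it passed under 1 of 3 other scalings, from -1.07 to -0.83.

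The thrombospondin receptors were measured too. Cd36 had signals of 10.28 and 10.65 in wild type and 9.28 and 9.34 in Stat6-deficient cells. Its genotype difference with IL-4 was -1.31. In medium the difference was -1.005, past the rule here and under 1 of 3 other scalings. Cd47 had 8.63 and 7.65 in wild type and 8.65 and 8.31 in Stat6-deficient cells, a difference with IL-4 in wild type of -0.98 that did not pass and that passed under 1 of the 3 scalings. Sdc4, a syndecan that helps cells attach to fibronectin, was lower on the Stat6-/- than on the wild-type IL-4 array (-1.07), and passed under 1 of the 3.

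Of 25 TGF-beta pathway genes 20 reached the floor. With IL-4 in wild type 1 rose and 3 fell, with a median of 0.02. Lrrc32, which holds latent TGF-beta at the cell surface, rose from 1.80 to 4.45, at least 3.81-fold, and was under the floor on both Stat6-deficient arrays. Skil, an inhibitor of Smad signalling, fell by 1.25. Tgfbr2, the type II receptor, fell by 1.11 and Smurf2, a ubiquitin ligase of the pathway, by 1.02, and these passed under 2 and 1 of the 3 other scalings. Tgfb1 had signals of 8.77 and 8.85 in wild type and 8.71 and 8.58 in Stat6-deficient cells, and no difference of it passed the rule. In Stat6-deficient cells 0 of 19 changed with IL-4. Between the genotypes 0 of 19 differed in medium, where Tgfbi did, and with IL-4 Lrrc32 was the 1 of 20.

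**Figure D5:**
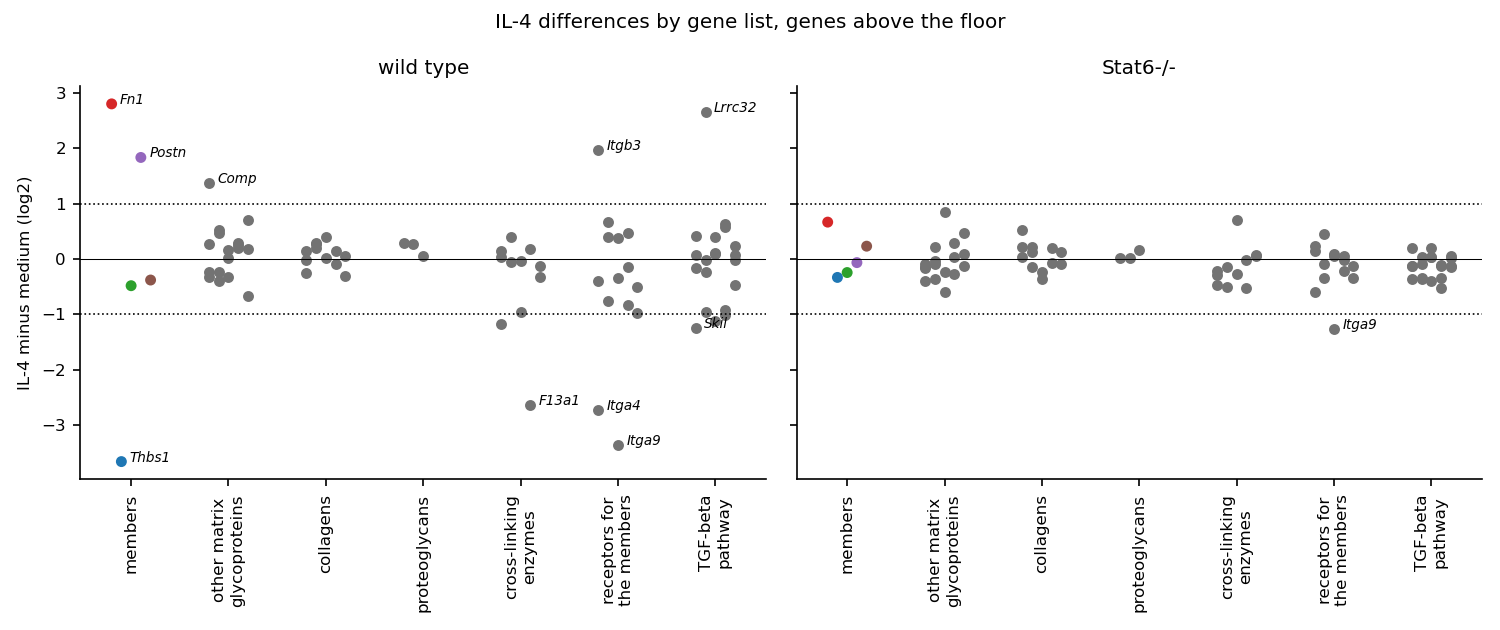
Difference between IL-4 and medium (log2) in wild type (left) and in Stat6-deficient cells (right) for the members and for genes of 6 lists that reached the floor on at least 1 array, 1 point per gene. Dotted lines mark the rule of size, and genes at 1.2 or more in size are named. In wild type, at most 4 points of any list lay beyond the dotted lines, and in Stat6-deficient cells only Itga9 was beyond them.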

How the data were processed

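The deposited table gives a log2 signal for each probeset on each array, which the authors made with RMA in Affymetrix Expression Console per the submitters' processing notes. RMA corrects background, quantile-normalizes arrays and summarises probes, which understates changes of weak genes. Its version, its settings and the genome build were not given in the sources used here. That values are log2 was inferred from how far they reach. The table held 35557 probesets, of which 21789 carried a single symbol, 1621 carried several and 12147 were unnamed in GEO's platform annotation. Each gene was represented by its single-symbol probeset with the highest mean over the 4 arrays. The median signal over all probesets lay between 2.23 and 2.29 on the 4 arrays; having 1 array per group limits the precision.

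Members and lists were chosen with earlier results of these data known. Named were the members, Stat6, up to 4 genes past the rule from each pathway list, marker genes above the floor and the 3 nearest profiles of each member; list genes that did not pass, or that stayed under the floor, were named as examples after their values were seen. A RefSeq table of GRCm38.p6 gave neighbouring genes and promoter sequences. Alternatives were a further quantile normalization, shifting the arrays to a common median, subtracting a lowess trend on intensity (fraction 0.3), dropping the floor, a floor at the 75th percentile, signals raised to the floor, the mean of all probesets of a gene, and 1.5-fold and 3-fold rules. The script was tested on simulated data. Python 3.11.15, pandas 2.3.3 and statsmodels 0.14.6 were used.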

Additional observations from a re-analysis of the deposited data

Results flagged for a closer look

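Ecm1 was picked out because its IL-4 differences had opposite signs in the genotypes, -0.38 in wild type and 0.23 in Stat6-deficient cells, with all 4 signals above the floor. Neither passed the rule of size, each rests on 1 array per group, and the difference between them was not tested.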

How the results depend on the processing

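Of 225 member values under the 9 alternatives, 215 kept their side of the rule of size and moved by less than 1.5-fold, and none that passed the rule reversed. A change of floor or of the rule leaves a member's difference as it was, and only its call can move. Each member had 1 probeset, so the mean of all probesets repeats the main values. Most of the 225 values thus could not have moved or reversed, and the count of 215 does not measure robustness. Fn1, Thbs1 and Tgfbi kept their calls under all 3 other scalings: for Fn1 the IL-4 difference in wild type ran from 2.80 to 2.91 and the genotype difference in medium from -3.74 to -3.51. Postn depended on the floor. With a floor at the 75th percentile (4.65) its differences of 1.84 with IL-4 in wild type, -1.83 between genotypes with IL-4 and 1.90 between the IL-4 differences could no longer be called, and with signals raised to the floor they were 1.03, -1.03 and 1.03. Under the 1.5-fold rule Fn1 with IL-4 in Stat6-deficient cells (0.67) and Ecm1 between genotypes with IL-4 (0.69) and between the IL-4 differences (-0.61) passed, and under the 3-fold rule Tgfbi between genotypes in medium (1.37) did not.

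Counts of all genes called for IL-4 in wild type, for IL-4 in Stat6-/-, between genotypes in medium, between genotypes with IL-4 and between the IL-4 differences were 1001, 37, 149, 922 and 969. They became 2907, 596, 1114, 2398 and 2830 under the 1.5-fold rule, and 271, 4, 17, 283 and 257 under the 3-fold rule. The floor at the 75th percentile gave 20 with IL-4 in Stat6-deficient cells and 93 between genotypes in medium. Quantile normalization applied again moved the median of all genes with IL-4 in wild type from -0.11 to 0.02. With it the genes that rose and fell there went from 304 and 697 to 403 and 488, those higher and lower between genotypes in medium from 31 and 118 to 42 and 71 (25 and 158 with the arrays shifted to one median), and those between the IL-4 differences from 346 and 623 to 420 and 461. Removal of the intensity trend gave 418 and 490 with IL-4 in wild type and 408 and 472 between the IL-4 differences. The cause was not tested. No paired analysis was possible because each group had 1 array, and for the same reason no replicate could be left out.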

Other observations

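The nearest genes with a probeset on either side of each member, in the gene order of GRCm38.p6, were looked at after the members' values were seen. Atic, an enzyme of purine synthesis that is the next gene to Fn1, was at 6.32 on the wild-type medium array, 7.59 on the wild-type IL-4, 5.43 on the Stat6-/- medium and 5.49 on the Stat6-/- IL-4 array. It rose by 1.27 with IL-4 in wild type and was lower on the Stat6-/- than on the wild-type IL-4 array (-2.10), in the directions of Fn1 and smaller in size. In medium its genotype difference was -0.88, short of the rule. Beside Thbs1, Rasgrp1, an activator of Ras, had 3.08 and 4.43 in wild type and 2.99 and 2.87 in Stat6-deficient cells, a rise of 1.35 with IL-4 in wild type where Thbs1 fell. Beside Postn, Supt20 had 5.88 and 4.76 in wild type and 5.31 and 5.16 in Stat6-deficient cells, a fall of 1.12 with IL-4 in wild type where Postn rose. Beside Tgfbi, Smad5 had 4.33 and 4.04 in wild type and 4.25 and 3.96 in Stat6-deficient cells, with no genotype difference past the rule.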
